A study of Mus musculus with 37 samples.

Results

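The 6 genes described here encode translation factors: Eif1a and Eif4a3, which are expressed in many tissues, and 4 near-identical copies of them that are transcribed in the mouse 2-cell embryo. They were chosen by gene symbol from a table of 55401 genes, as the EIF1A-like genes BB287469 and Gm4027, the EIF4A3-like genes Eif4a3l1 and Eif4a3l2, and the parent genes. All 6 were in the table. The choice was made with their 2-cell levels and their difference in late 2-cell embryos in view, so those values are given as a description without a test.

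The study measured RNA in 26 total RNA libraries covering 5 stages: full-grown oocytes (FGO), eggs at metaphase II (MII), and embryos at the late 1-cell (L1C), early 2-cell (E2C) and late 2-cell (L2C) stage. Controls were oocytes of Bap1 flox/flox females, and knockouts were oocytes of Gdf9-iCre, Bap1 flox/flox females, in which the Gdf9 promoter drives iCre in the growing oocyte. Bap1 encodes a deubiquitinase that removes ubiquitin from histone H2A. All early embryos had a B6 sire, so knockout embryos had a wild-type paternal allele, and embryos were cultured in KSOM medium. The number of oocytes or embryos in a library is not given in the sources used here. E2C had 3 control and 3 knockout libraries, and the other stages had 2 control and 3 knockout libraries. A further 11 poly(A) libraries came from the epiblast, visceral endoderm and extraembryonic ectoderm at embryonic day 6.5, of embryos with the same 2 maternal genotypes and a PWK sire. The labels do not say whether replicates came from separate females, so the spread between libraries may be technical.

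EIF1A binds the small ribosomal subunit and, with EIF1, keeps it open while it scans a messenger RNA for the start codon. EIF4A3 is a DEAD-box RNA helicase that clamps the exon junction complex onto spliced RNA, the mark by which nonsense-mediated decay recognises some transcripts. The mouse genome becomes transcribed after fertilisation, with a major wave in the 2-cell embryo. That wave includes multicopy gene families such as Zscan4, Tdpoz and Usp17l, and the EIF1A-like cluster on chromosome 12 is known as one of them.

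The positions given are those of GENCODE M21 on GRCm38. Among the parents, Eif1a (ENSMUSG00000057561.10) lies at chr18:46597701-46616456 on the plus strand, with 3 exons in its longest coding transcript. Eif4a3 (ENSMUSG00000025580.15) lies at chr11:119288363-119300089 on the minus strand, with 12 exons in its longest coding transcript.

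Among the copies, BB287469 (ENSMUSG00000079031.1) lies at chr12:87816577-87820676 and Gm4027 (ENSMUSG00000092019.4) at chr12:87618869-87622955, both on the plus strand. Each has 2 exons, with 1851 and 1850 exonic bases. The copies of Eif4a3 have single-exon coding transcripts on chromosome 6. Eif4a3l1 (ENSMUSG00000094973.2) is at chr6:136327539-136329983 and Eif4a3l2 (ENSMUSG00000107906.1) is at chr6:116551141-116552502, both on the plus strand. No annotated gene overlapped any of the 6.

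The copies are shown first against each other, because their likeness decides which reads can be told apart. The coding sequences of BB287469 and Gm4027, of 432 bases without the stop codon, had 0 differences from each other and 27 differences from Eif1a, an identity of 93.75%. In the stretch below, coding bases 235 to 324, the 2 members are set beside 3 other copies of the chromosome 12 cluster. Capitals in BB287469 mark bases at which any of the others differs from it, and capitals in the other lines mark their differences from BB287469.
BB287469: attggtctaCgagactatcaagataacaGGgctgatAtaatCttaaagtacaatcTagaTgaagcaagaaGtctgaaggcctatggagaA
Gm4027: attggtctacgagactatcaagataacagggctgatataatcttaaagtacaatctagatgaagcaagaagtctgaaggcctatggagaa
Gm5662: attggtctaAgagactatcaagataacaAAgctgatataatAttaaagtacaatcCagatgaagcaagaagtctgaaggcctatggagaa
Gm8300: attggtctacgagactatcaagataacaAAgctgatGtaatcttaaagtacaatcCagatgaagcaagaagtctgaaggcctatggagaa
Gm21936: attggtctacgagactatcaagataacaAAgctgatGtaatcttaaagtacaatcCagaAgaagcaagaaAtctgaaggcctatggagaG
Gm4027 has 0 marked bases in this stretch, Gm8300 has 4, Gm5662 has 5 and Gm21936 has 7. Over the whole coding sequence the other 14 coding copies of the cluster differed from BB287469 at 7 bases (Gm2075) to 17 bases (Gm16368).

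The EIF4A3-like copies were compared with Eif4a3 over 1233 coding bases. Eif4a3l1 had 47 differences from Eif4a3 (96.19% identity), Eif4a3l2 had 40 (96.76%), and the copies had 18 between them (98.54%). The first 90 coding bases hold several of these. Capitals in Eif4a3 mark bases at which either copy differs from it, and capitals in the copies mark their differences from Eif4a3.
Eif4a3: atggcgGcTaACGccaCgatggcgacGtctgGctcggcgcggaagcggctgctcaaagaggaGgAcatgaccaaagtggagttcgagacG
Eif4a3l1: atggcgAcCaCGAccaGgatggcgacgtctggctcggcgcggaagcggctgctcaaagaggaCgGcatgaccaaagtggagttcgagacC
Eif4a3l2: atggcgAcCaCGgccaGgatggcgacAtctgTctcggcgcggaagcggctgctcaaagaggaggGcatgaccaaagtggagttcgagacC
Eif4a3l1 and Eif4a3l2 each carry 9 marked bases here, most of them at the same places.

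The likeness limits what the deposited values can separate. Of all words of 50 exonic bases in BB287469, 94.34% also occur in Gm4027, 96.61% occur in some other annotated gene and 3.39% occur in Eif1a. For Gm4027 the share found in any other gene was 94.39%. In Eif4a3l1, 47.45% of the words occur elsewhere, 42.87% in Eif4a3l2 and 11.27% in Eif4a3. In Eif4a3l2, 63.37% occur elsewhere, 51.26% in Eif4a3l1 and 16.6% in Eif4a3. The parents are far more distinct, with 2.62% of the words of Eif1a and 16.47% of those of Eif4a3 found in another gene. How reads that match several copies were assigned is not given in the sources used here. The levels of single copies are therefore uncertain, and sums over copies are given beside them.

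**Figure D1:**
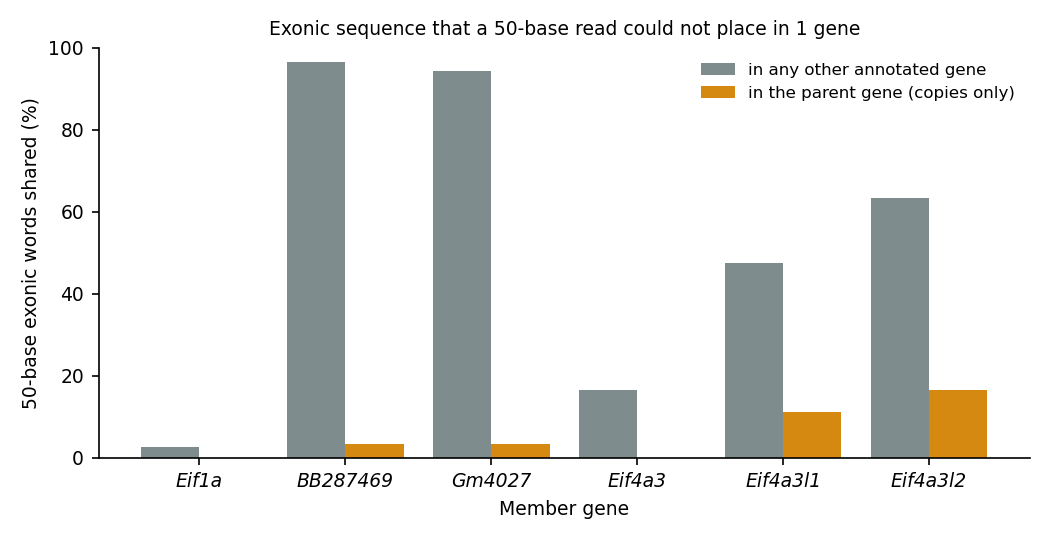
Percentage of 50-base exonic words of each member (y axis) that occur in any other annotated gene (grey bars) and, for the copies, in their parent gene (orange bars). BB287469 (96.61%) and Gm4027 (94.39%) share nearly all of their words with another gene, while Eif1a shares 2.62%.

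The upstream sequences of 3 copies are shown because these copies were first seen at the same stage and moved together there. The windows come from RefSeq on GRCm38.p6, whose table held BB287469, Gm4027, Eif4a3l1 and Eif4a3, and stop at the base before the GENCODE start. Capitals mark the letters TATATA, read on either strand, with overlapping matches joined. The first window is chr12:87816327-87816576, the second is chr12:87618659-87618868 and the third is chr6:136327289-136327538, all on the plus strand.
BB287469: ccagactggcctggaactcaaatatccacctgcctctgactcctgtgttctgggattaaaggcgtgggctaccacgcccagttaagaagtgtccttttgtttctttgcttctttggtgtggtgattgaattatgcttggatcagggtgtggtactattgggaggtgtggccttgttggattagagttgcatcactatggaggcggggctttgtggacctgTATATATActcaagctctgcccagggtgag
Gm4027: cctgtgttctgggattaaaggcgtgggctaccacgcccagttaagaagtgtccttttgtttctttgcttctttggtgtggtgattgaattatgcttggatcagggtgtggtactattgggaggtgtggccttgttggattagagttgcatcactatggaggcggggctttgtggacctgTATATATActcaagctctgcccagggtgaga
Eif4a3l1: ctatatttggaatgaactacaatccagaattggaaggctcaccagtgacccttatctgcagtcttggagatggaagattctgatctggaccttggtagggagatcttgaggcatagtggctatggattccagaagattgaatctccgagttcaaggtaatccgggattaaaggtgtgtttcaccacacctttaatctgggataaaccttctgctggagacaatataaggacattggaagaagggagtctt
BB287469 and Gm4027 share a run of 209 bases, the whole Gm4027 window but for 1 base. TATATA, which reads the same on both strands, was found in 3 of 6 copies with a RefSeq window and in 5.25% of 32851 RefSeq windows of 250 bases upstream. In BB287469 its first match starts 30 bases upstream of the RefSeq start, and in Gm4027 71 bases upstream. The GENCODE start of Gm4027 lies upstream of its RefSeq start, and both matches hold the same place in the shared run. TATAAA was found in 1 of the 6 copies and in 12.37% of windows, counting both strands. The letters GGATTA, the core bound by OTX-type and OBOX-type homeodomains, were in 4 of the 6 copies and in 6.25% of windows. These are matches of letters only.

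FPKM counts fragments per kilobase of gene, scaled to the size of the library, so levels of different genes can be set side by side within a library. Bap1 itself was at 16.3 to 29.9 FPKM in the control libraries of the 5 early stages and at 3.76 to 11.7 FPKM in the knockout libraries, with no overlap within any stage. All 7 oocyte markers listed were present at every stage. Of 9 cumulus and granulosa markers, Cyp19a1 alone reached 1 FPKM in any early library, and Lhcgr was listed at 0 in all of them. Their summed level was 6.73 to 8.07 FPKM in control FGO against 2.48 to 3.15 in knockout FGO, and 3.74 to 4.93 against 1.33 to 2.20 in E2C. Libraries of a group correlated at r of 0.9494 to 0.9927 over genes, and the lowest value was between knockout replicates 2 and 3 of E2C.

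Of the 4 copies, 3 were near 0 before the 2-cell stage, and the parents differed from each other in when they were present. BB287469 and Gm4027 were listed at 0 in all 15 libraries of FGO, MII and L1C, except that Gm4027 was at 0.0465 FPKM in 1 control L1C library. Eif4a3l1 stayed between 0 and 0.393 FPKM in the same libraries. Eif1a was also low there, at 0 to 0.365 FPKM. Eif4a3 was abundant in oocytes, at a mean of 62.0 ± 6.4 FPKM (SD, n = 2) in control FGO.

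**Figure D2:**
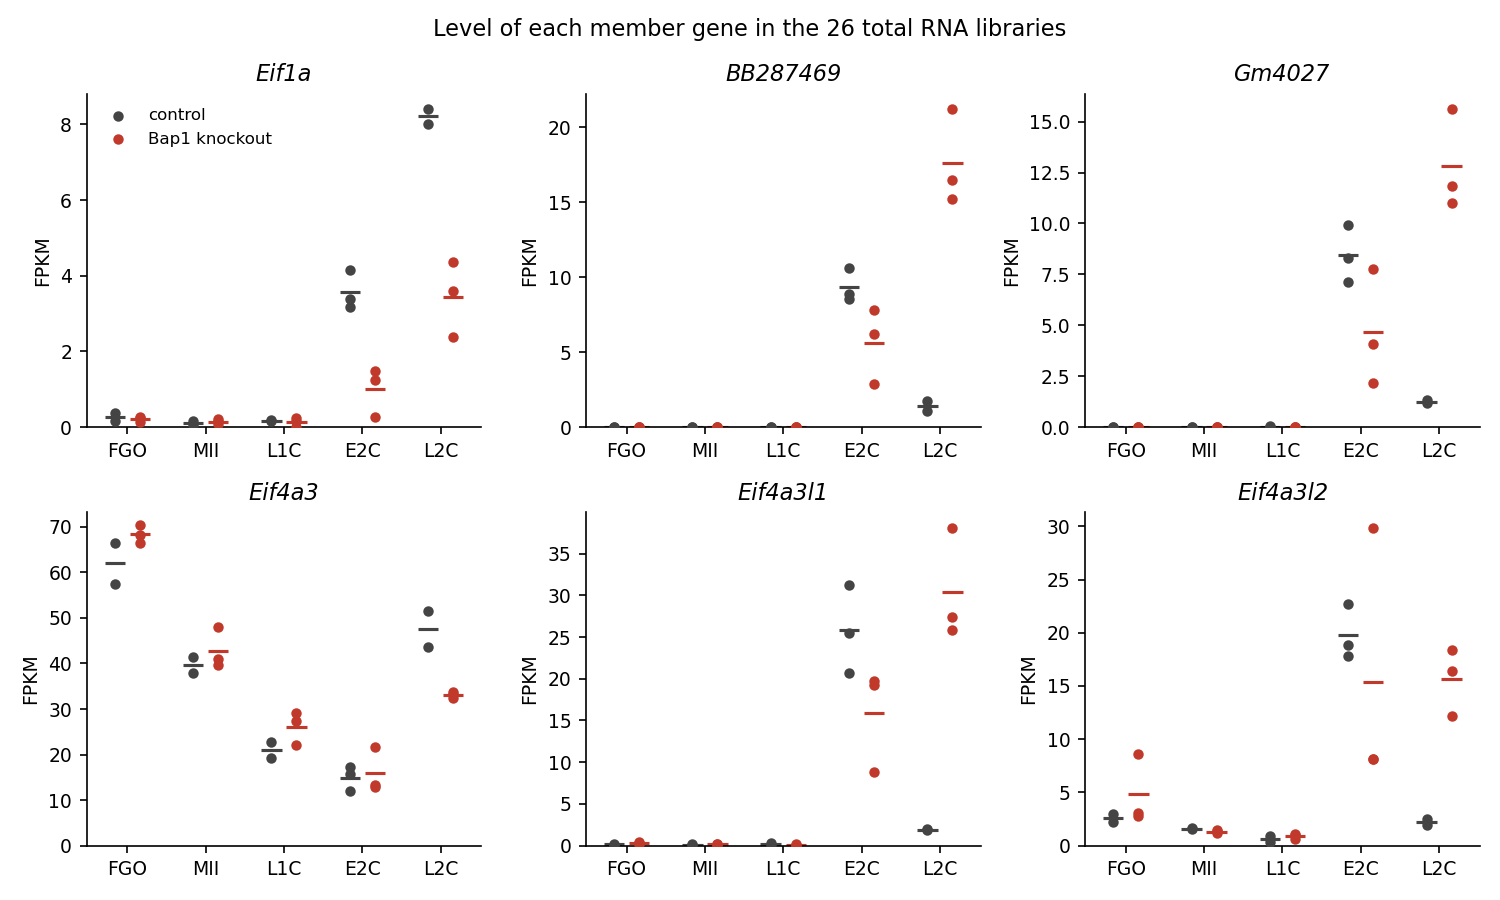
FPKM (y axis, linear, a scale of its own in each panel) of the 6 members in each library of the 5 early stages (x axis). Points are libraries, short lines are group means, control in dark grey and Bap1 knockout in red. The 4 copies are near 0 before the 2-cell stage, except Eif4a3l2, and are above control in every knockout library at L2C, whereas Eif1a and Eif4a3 are below control in every knockout library there.

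BB287469 in E2C stood at 8.91, 10.6 and 8.57 FPKM in the 3 control libraries and at 6.22, 2.85 and 7.83 FPKM in the 3 knockout libraries. Every knockout library lay below every control library. In L2C it was at 1.10 and 1.76 FPKM in controls and at 21.2, 16.5 and 15.2 FPKM in knockouts. The order of its 4 measurable groups was therefore knockout L2C, control E2C, knockout E2C and control L2C, and no neighbouring pair overlapped. The mean in control L2C was 6.56-fold below that of control E2C, while the mean in knockout L2C was 3.13-fold above that of knockout E2C.

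Gm4027, whose reads cannot be told from those of BB287469 over most of its length, stood at 8.31, 9.95 and 7.15 FPKM in control E2C and at 4.08, 2.18 and 7.79 FPKM in knockout E2C. Here the highest knockout library lay inside the control range. In L2C it was at 1.34 and 1.17 FPKM in controls and 15.6, 11.8 and 11.005 FPKM in knockouts, with no overlap. The mean in knockout L2C was 10.2-fold that in control L2C, against 12.3-fold for BB287469.

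Eif4a3l1, a copy of the exon junction helicase, stood at 25.4, 31.2 and 20.7 FPKM in control E2C and at 19.2, 8.85 and 19.7 FPKM in knockout E2C. The knockout libraries lay below the controls. In L2C it was at 1.99 and 1.83 FPKM in controls and at 38.1, 27.4 and 25.9 FPKM in knockouts, a ratio of means of 15.9. The knockout level at L2C overlapped the control level at E2C, which was not so for BB287469 or Gm4027.

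Eif4a3l2, the other copy, differed from the rest in having a measurable level in oocytes. It was at 3.02 and 2.25 FPKM in control FGO and at 8.62, 3.04 and 2.83 FPKM in knockout FGO, partly above its control level in L2C. One knockout library stood apart there, and it was also the highest FGO library for Eif4a3l1 (0.393 FPKM) and Gm5576 (10.7 FPKM). In E2C the controls were at 17.8, 22.7 and 18.8 FPKM and the knockouts at 8.17, 8.18 and 29.9 FPKM, so that 1 knockout library exceeded every control. In L2C the controls were at 2.54 and 1.97 FPKM and the knockouts at 18.4, 16.4 and 12.2 FPKM.

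Before the 2-cell stage, in control L2C and at embryonic day 6.5 the level of Eif4a3l2 was a small part of that of Eif4a3, with which it shares 16.6% of its 50-base words. Its FPKM was 1.95% to 12.3% of that of Eif4a3 in the 15 libraries of FGO, MII and L1C, with a median of 3.99%. In E2C it was 37.8% to 225%. The range in L2C was 4.515% to 4.932% in controls and 36.5% to 56.6% in knockouts. At embryonic day 6.5 it was 1.97% to 3.96% in all 11 libraries, while Eif4a3l1 was at most 0.064%. Whether the reads where this share was low came from Eif4a3l2 or from Eif4a3 was not tested.

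Eif1a, the parent of the chromosome 12 copies, stood at 3.17, 3.38 and 4.16 FPKM in control E2C and at 1.25, 0.268 and 1.48 FPKM in knockout E2C. In L2C it was at 8.02 and 8.40 FPKM in controls and at 4.37, 2.38 and 3.59 FPKM in knockouts. It was thus lower in every knockout library at both 2-cell stages, and at L2C it lay on the other side of control from its copies. Its knockout level at L2C overlapped the control level at E2C, with means of 3.45 and 3.57 FPKM.

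Eif4a3 was at 66.5 and 57.5 FPKM in control FGO and at 70.3, 68.1 and 66.6 FPKM in knockout FGO. Its mean was lower at each later stage up to E2C. In controls it went from 62.0 to 39.6 (MII), 20.97 (L1C) and 14.96 FPKM (E2C), and in knockouts from 68.3 to 42.8, 26.1 and 15.9 FPKM. In L2C it was at 51.5 and 43.6 FPKM in controls and at 32.4, 33.7 and 33.3 FPKM in knockouts, 3.18-fold and 2.08-fold above the E2C means of the same genotype.

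The change of Eif4a3 before the 2-cell stage was tested over 10 libraries at a time, averaged over genotypes, and a gene is said to be called where its adjusted p was under 0.05. It fell by 0.65 on the log2(FPKM + 1) scale from FGO to MII (SE 0.066, adjusted p = 0.00017, limma) and by 0.79 from MII to L1C (SE 0.087, adjusted p = 7.7e-05, limma). Of all genes tested, 14.3% were called from FGO to MII (5.45% higher and 8.89% lower) and 36.8% from MII to L1C (14.0% higher and 22.8% lower). The difference in the knockout effect between these stages was not called for Eif4a3 (adjusted p = 0.948 and 0.690, limma). That test called 0.00% of genes from FGO to MII and 0.0508% from MII to L1C (0.0423% higher and 0.00846% lower). Eif4a3l2 fell by 0.83 from FGO to MII (SE 0.24, adjusted p = 0.044, limma). That call did not hold when any of 7 of the 10 libraries was left out (adjusted p = 0.075 to 0.139, limma). It also did not hold without a filter (0.144) or without the trend (0.057). From MII to L1C the difference of Eif4a3l2 was -0.49, and -0.37 without L1C control replicate 1. It did not pass the filter at L1C and entered that fit through its MII level, so no test of that step is given.

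The knockout effect was tested within each stage by limma, for genes that reached 1 FPKM in 2 or more libraries of the stage, and adjusted over all genes tested. In FGO, 2 of the 6 members passed that filter and 0 were called, where 8.34% of genes were called, 1.34% higher and 7.00% lower. In MII, 2 passed and 0 were called, against 12.0% of genes, 4.20% higher and 7.85% lower. In L1C only Eif4a3 passed and was not called, against 14.9% of genes, 6.20% higher and 8.71% lower. At an unadjusted p under 0.05 the number of members was also 0 at FGO, MII and L1C. Eif4a3 was 0.14 ± 0.083 (SE) higher in knockout FGO (adjusted p = 0.334), 0.11 ± 0.095 higher in MII (adjusted p = 0.499) and 0.30 ± 0.13 higher in L1C (adjusted p = 0.162). Eif4a3l2 differed by 0.55 ± 0.41 in FGO (adjusted p = 0.439) and by -0.16 ± 0.13 in MII (adjusted p = 0.462).

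In E2C all 6 members passed the filter, and 1 of them was called, where 10.0% of genes were called, 4.19% higher and 5.83% lower. Eif1a fell by 1.24 on the log2(FPKM + 1) scale (SE 0.29, adjusted p = 0.033, limma), from a mean of 3.57 ± 0.52 to 1.00 ± 0.645 FPKM (SD, n = 3 each). The highest knockout library was at 1.48 FPKM and the lowest control library at 3.17 FPKM. The 4 copies had lower means in knockouts but were not called. In simulated E2C data the fit called 19 of 60 genes changed by 1 on this scale, so differences of this size can go uncalled. BB287469 differed by -0.72 ± 0.29 (adjusted p = 0.146), Gm4027 by -0.85 ± 0.34 (adjusted p = 0.140), Eif4a3l1 by -0.72 ± 0.29 (adjusted p = 0.140) and Eif4a3l2 by -0.59 ± 0.42 (adjusted p = 0.392). Eif4a3 differed by 0.06 ± 0.22 (adjusted p = 0.896). In 3 of the 6 members, BB287469, Eif4a3l1 and Eif1a, every knockout library lay below every control library, as in 16.3% of all genes tested.

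The call for Eif1a was lost without any of several single libraries and under other settings. Its adjusted p was 0.053 to 0.089 when any of 5 libraries was left out (the exception was knockout replicate 3), 0.061 with a pseudocount of 0.1, 0.130 without a filter on low values and 0.052 with the replicate number as a block.

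**Figure D3:**
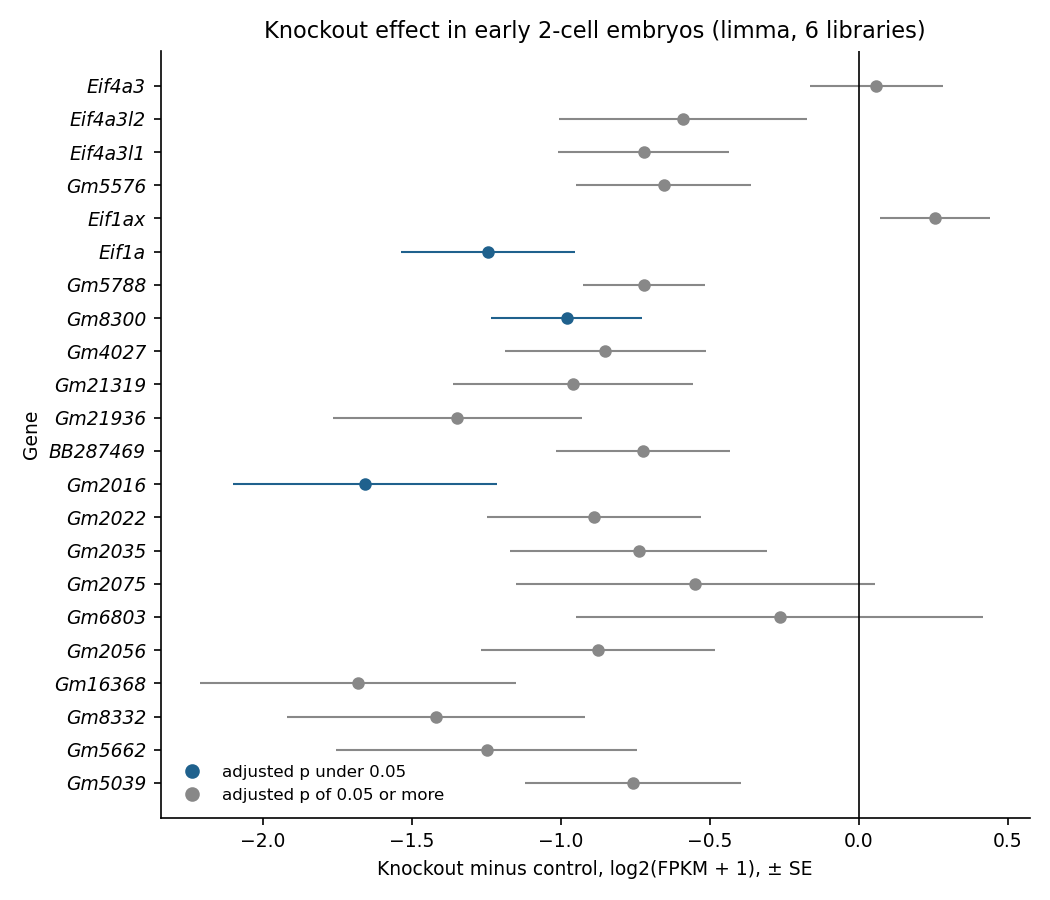
Knockout minus control in E2C on the log2(FPKM + 1) scale (x axis, points with SE bars, limma over 6 libraries) for the members, their relatives Eif1ax and Gm5576, and the 16 coding copies on chromosome 12 (y axis). Eif1a, Gm8300 and Gm2016 (blue) had an adjusted p under 0.05, and all 16 copies lie left of 0.

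Among the knockout E2C libraries, replicate 2 was the lowest for BB287469 (2.85 FPKM), Gm4027 (2.18), Eif4a3l1 (8.85) and Eif1a (0.268) and the highest for Eif4a3 (21.6). Replicate 3 was the highest for all 4 copies. Without replicate 2, the difference of BB287469 was -0.37 and that of Eif4a3l1 was -0.37, in place of -0.72 for each. Without replicate 3, Gm4027 was called (-1.23, adjusted p = 0.035) and Eif4a3l2 was called (-1.17, adjusted p = 0.013). The share of mitochondrial transcripts in the summed FPKM was 13.8% to 17.8% in control and 10.3% to 14.2% in knockout E2C libraries, with replicate 2 the lowest. Its part in these differences was not tested.

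The knockout effect in E2C was set against that in L1C in 1 fit of 11 libraries. It called 0.337% of genes, 0.125% higher and 0.211% lower. Eif4a3, the single member that passed the filter at L1C, was not called, with a difference of -0.24 ± 0.30 (SE, adjusted p = 0.771, limma). The other 5 members entered the fit through their E2C level alone, so their difference would restate the E2C effect, and it is not given.

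In L2C the members' difference belongs to the choice of the genes and is given without a test. All 4 copies were higher in every knockout library than in any control library, which was so for 31.6% of all genes tested at L2C. Both parents were lower in every knockout library, as were 30.6% of genes. In the same fit 38.5% of all genes were called, 19.0% higher and 19.5% lower. On the log2(FPKM + 1) scale the differences were 2.94 for BB287469, 2.60 for Gm4027, 3.41 for Eif4a3l1 and 2.34 for Eif4a3l2, against -1.08 for Eif1a and -0.50 for Eif4a3. The ratios of mean FPKM were 12.3, 10.2, 15.9 and 6.94 for the copies, and for the parents the control mean was 2.38-fold and 1.43-fold that of the knockout. The median over all genes tested was 0.03, or 0.16 when each library was scaled to the same total, and this scaling moved the E2C median from 0.03 to 0.13. The summed level of the 7 oocyte markers was 478 to 503 FPKM in control and 776 to 904 FPKM in knockout L2C libraries, and the mitochondrial share was 22.8% to 23.7% in control and 18.0% to 19.7% in knockout. Their part in the difference was not tested. As each library is a bulk sample, fewer cells with a transcript and less of it per cell cannot be told apart.

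Because reads may be exchanged between copies, the copies were also summed with weights of exonic length. BB287469 and Gm4027 together were at 17.2, 20.6 and 15.7 FPKM in control E2C and at 10.3, 5.03 and 15.6 FPKM in knockout E2C. The ranges were next to each other without overlap, and the difference of -0.85 ± 0.32 was not called (adjusted p = 0.129, limma). In L2C the sum was 2.43 and 2.93 FPKM in controls and 36.8, 28.3 and 26.3 FPKM in knockouts. Eif4a3l1 and Eif4a3l2 together were at 43.8, 54.5 and 39.7 FPKM in control E2C and at 28.2, 17.1 and 48.8 FPKM in knockout E2C, a difference of -0.65 ± 0.32 (adjusted p = 0.217). Their L2C sum was 4.49 and 3.79 FPKM in controls and 57.9, 44.5 and 39.0 FPKM in knockouts.

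The copies were also set against their parent within each library, as a log2 ratio of FPKM + 1. In E2C the value for the summed EIF1A-like members over Eif1a was 2.04 ± 0.31 in controls and 2.44 ± 0.26 in knockouts (SD, n = 3 each, p = 0.2, exact permutation test, two-sided). This ratio moved with the pseudocount, with Eif1a at 0.268 to 1.48 FPKM in knockouts: the difference between genotypes was 0.40 with 1, 1.06 with 0.1 (p = 0.1, exact permutation test) and 1.23 with none (p = 0.1, exact permutation test), the last chosen after seeing the data. The plain log2 ratios were 2.44, 2.61 and 1.92 in controls and 3.04, 4.23 and 3.40 in knockouts, without overlap. With a pseudocount of 1, the log2 ratio of the summed EIF4A3-like members to Eif4a3 was 1.56 ± 0.26 in controls and 0.85 ± 1.08 in knockouts (n = 3 each, p = 0.4, exact permutation test, two-sided). With 20 splits the smallest p this design allows is 0.1. The wide knockout spread of the second ratio came with replicate 2, at -0.32, against 1.08 and 1.80 in the others.

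The 2 EIF1A-like members are part of a cluster of 16 coding copies and 4 unprocessed pseudogenes on chromosome 12, whose coding copies span chr12:87494721-88324026. Their coding identity to Eif1a was 93.52% to 95.14%. Measured levels depended on the model, since 9 copies are annotated as coding sequence alone (435 bases) and 7 as models of 1766 to 1873 bases. The group mean of the 16 copies was 8.47 to 61.6 FPKM in control E2C (median 28.2) and 2.84 to 29.4 FPKM in knockout E2C (median 15.9). In L2C it was 1.25 to 41.8 FPKM in controls (median 6.07) and 12.8 to 84.4 FPKM in knockouts (median 55.2). No single library of FGO, MII or L1C exceeded 1.507 FPKM for any of them. The 2 members were among the lowest of the cluster by level.

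All 16 copies had a lower mean in knockout E2C, and 10 of them (62.5%) had every knockout library below every control library, against 16.3% of all genes tested. The control mean was 1.28-fold (Gm6803) to 3.17-fold (Gm16368) the knockout mean, with a median of 1.84-fold. Of the 16, 2 were called lower, where 5.83% of all genes tested were. They were Gm8300, which fell by 0.98 (SE 0.25, adjusted p = 0.045), and Gm2016, which fell by 1.66 (SE 0.44, adjusted p = 0.049, limma). Over the 16 copies the adjusted p ran from 0.045 to 0.840 (limma). The 16 values are not independent, as 13.07% of the words of Gm21319, the most distinct copy, and all words of Gm8332 occur in another gene. The direction held for 16 of 16 under each of 3 scalings, and the higher level in L2C likewise. Without knockout replicate 2 or control replicate 1, 15 of 16 means were lower and 10 copies did not overlap. Such separation was then more common among all genes tested as well. Its share was 19.81% to 21.49% of them when any 1 library was left out, against 16.3% with all libraries. With 1 library left out, 0 to 6 copies were called. The 2 calls were lost under each of 5 other settings. When all 26 libraries were fitted together 12 copies were called, but that fit also called more of all genes, as given below.

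Summed with weights of length, the 20 copies at least 90% identical to Eif1a came to 623, 523 and 422 FPKM in control E2C and 325, 118 and 405 FPKM in knockout E2C, a difference of -1.05 ± 0.39 (adjusted p = 0.124). In MII this sum differed by -0.82, at 1.13 to 1.67 FPKM in controls and 0.225 to 0.421 in knockouts. In FGO it differed by -0.74. Only controls reached 1 FPKM at these stages, so the sum passed the filter through them alone. No test of it is given there. In L1C the sum differed by -0.96 ± 0.47 (adjusted p = 0.212), and the effect changed by -0.09 ± 0.70 from L1C to E2C (adjusted p = 0.973, limma). In L2C the 20 copies came to 129 and 137 FPKM in controls and 979, 737 and 824 FPKM in knockouts, with no overlap. All 16 coding copies had every knockout library above every control library there. The ratio of means ran from 1.52 (Gm5788) through 3.54 (Gm2016) to 19.1 (Gm5039), with a median of 7.68. The knockout L2C mean was above the control E2C mean in 16 of 16 copies, by 1.27-fold to 3.67-fold.

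**Figure D4:**
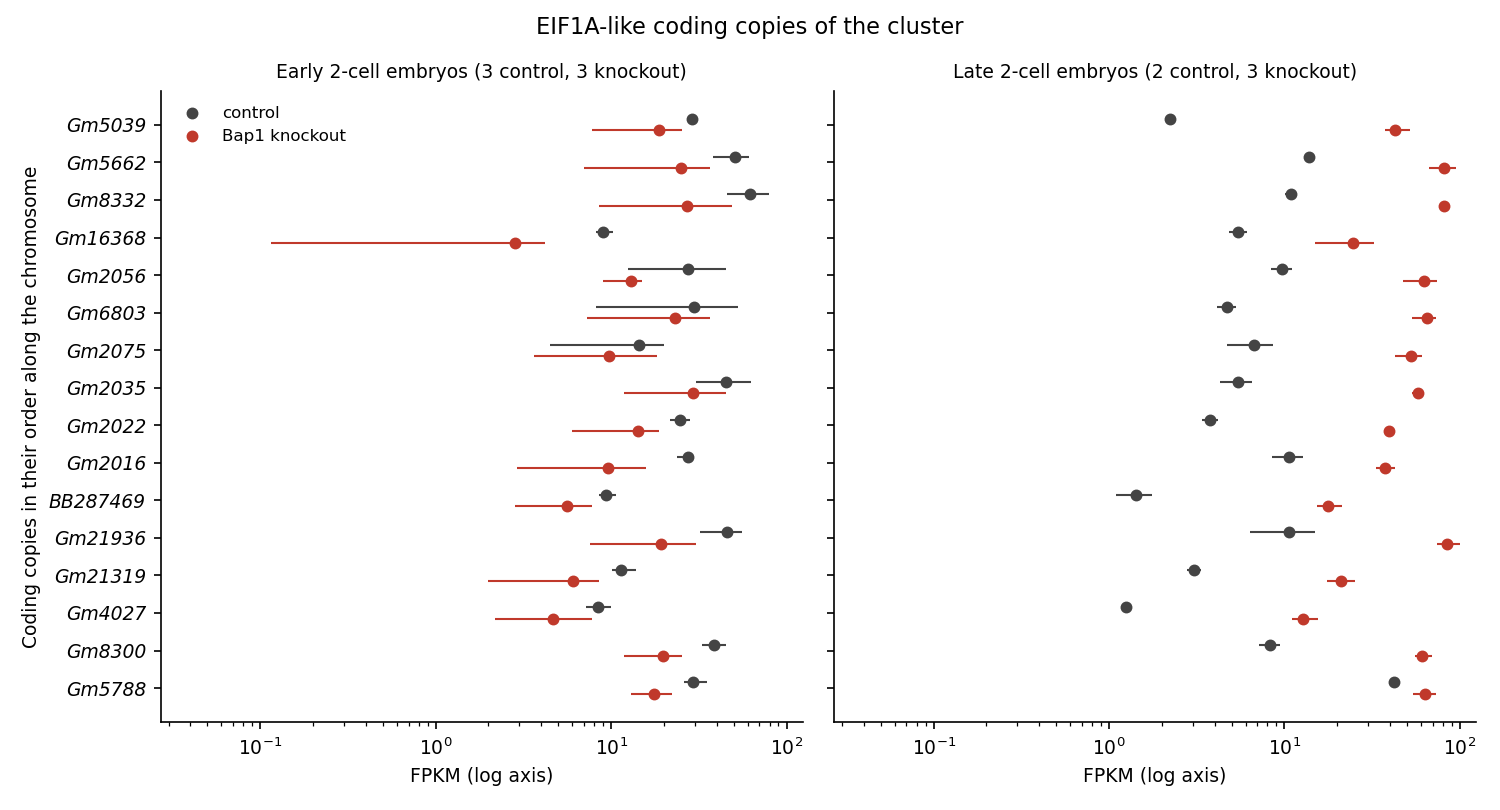
FPKM (x axis, log) of the 16 coding EIF1A-like copies in their order along chromosome 12 (y axis), in E2C (left, 3 control and 3 knockout libraries) and L2C (right, 2 control and 3 knockout). Points are group means and lines run from the lowest to the highest library. Knockout (red) lies left of control (dark grey) for 16 of 16 means in E2C and right of it for 16 of 16 in L2C.

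The same length-weighted sums gave the share of each family that fell to its parent. The EIF1A sum here held Eif1a and the 20 copies at least 90% identical to it, and left out the X-linked relative Eif1ax. Eif1a made up 2.29% to 4.34% of that sum in control E2C and 1.04% to 1.74% in knockout E2C. In L2C its share was 22.1% to 22.2% in controls and 1.46% to 2.01% in knockouts. The size of this share depends on the weights, since Eif1a is the longer gene model. In plain sums of FPKM, chosen after seeing the data, it was 0.469% to 1.042% in control and 0.204% to 0.353% in knockout E2C, and 5.217% to 5.285% in control and 0.309% to 0.428% in knockout L2C. The 2 members BB287469 and Gm4027 were 3.85% to 8.71% of the copies' sum at the 2-cell stages, in both genotypes.

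Eif4a3 made up 85.4% to 97.0% of its family, which here is Eif4a3, Eif4a3l1, Eif4a3l2 and the processed pseudogene Gm5576 (chromosome 6, 96.76% identical to Eif4a3), in FGO, MII and L1C. In control E2C it was 24.2% to 31.0%, and in knockout E2C 24.9% to 60.1%. In control L2C it was again 92.3% to 93.4%, and in knockout L2C 41.2% to 51.6%. The whole family summed to 73.7 ± 10.7 FPKM in control E2C and 57.6 ± 12.6 in knockout E2C (SD, n = 3 each, adjusted p = 0.201, limma). In L2C it summed to 74.4 and 63.6 FPKM in controls and 106, 93.2 and 87.2 FPKM in knockouts. In L2C every knockout library was above every control library. These values depend on the weights too, since Eif4a3 has the longest model of its family. In plain sums the family was at 74.0 ± 10.6 FPKM in control E2C. In L2C it was then at 56.9 and 49.1 FPKM in controls and 99.6, 85.3 and 78.8 FPKM in knockouts. The plain share of Eif4a3 was 17.7% to 23.0% in control and 18.0% to 50.2% in knockout E2C. It was 88.8% to 90.5% in control and 32.6% to 42.3% in knockout L2C.

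**Figure D5:**
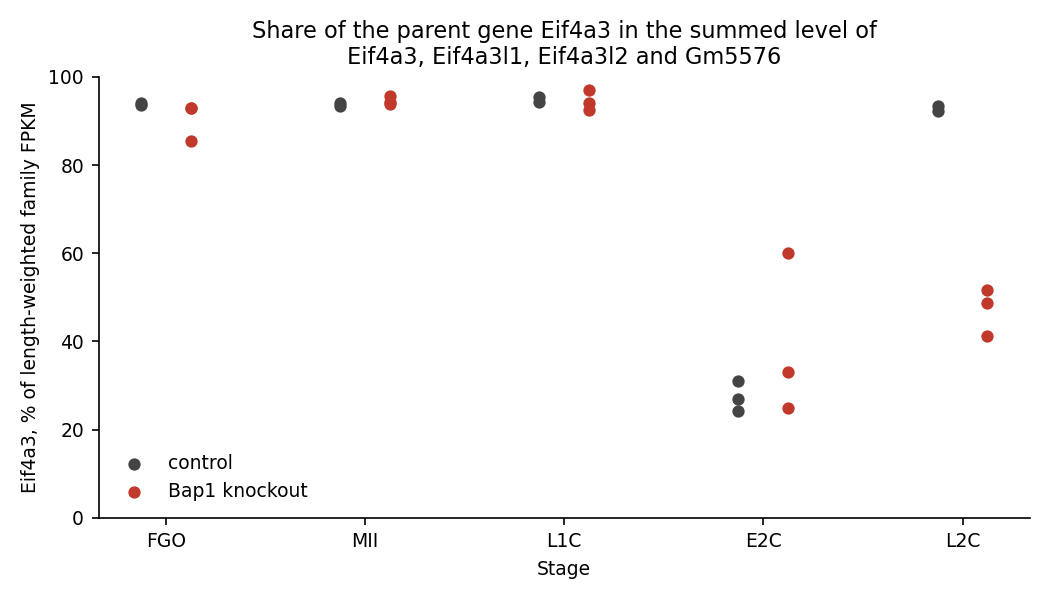
Share of the parent Eif4a3 in the length-weighted summed FPKM of Eif4a3, Eif4a3l1, Eif4a3l2 and Gm5576 (y axis, percent) in each library (points), by stage (x axis), control in dark grey and knockout in red. The share is 92.3% to 93.4% in control L2C and 41.2% to 51.6% in knockout L2C.

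Other relatives reached a group mean of at least 5 FPKM as well. Eif1ax, the X-linked relative of Eif1a (85.65% identity), was at 16.03 FPKM in control FGO, 4.76 in control E2C and 2.73 in control L2C. It differed by 0.26 ± 0.18 between genotypes in E2C (adjusted p = 0.399). Gm5576 was at 13.5 FPKM in control and 8.75 in knockout E2C, and at 1.30 and 8.66 FPKM in control and knockout L2C. The helicase genes Eif4a1 and Eif4a2 (68.83% and 68.69% identity to Eif4a3) were at 205 and 61.6 FPKM in control E2C and differed by -0.11 ± 0.11 and 0.08 ± 0.12 (adjusted p = 0.550 and 0.712). Their processed pseudogenes Eif4a-ps4 and Gm17802 were not called in E2C either (adjusted p = 0.674 and 0.942). Of the pseudogenes of the chromosome 12 cluster, Gm8607 was at 53.1 and 42.8 FPKM, Gm48388 at 12.2 and 11.2 FPKM and Gm48389 at 5.15 and 7.47 FPKM in control and knockout E2C, and none was called (adjusted p = 0.564, 0.759 and 0.260). In L2C they were at 3.48 and 59.4 FPKM, 4.38 and 27.4 FPKM, and 0.116 and 3.68 FPKM, with every knockout library above every control library for each.

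The genes most like each member over the 10 group means were ranked among 9344 genes by Pearson's r of log2(FPKM + 1), as a description without a p. For BB287469 they were Gm4027 (r = 0.9993), Gm44693 (0.9971) and Gm4340 (0.9963), and for Gm4027 they were BB287469 (0.9993), Gm44693 (0.9957) and Gm2022 (0.9956). Of the 50 most like BB287469, 14 were copies of its family. For Eif4a3l1 they were Gm6489 (0.997), the EIF1A-like pseudogene Gm8607 (0.9967) and Gm7957 (0.9961). Eif4a3l2 was matched less closely, by Gm19945 (0.9653), Fhod3 (0.9549) and Knstrn (0.9451). For Eif1a they were Gm47009 (0.9947), Gm5773 (0.9946) and Gm12799 (0.994), and for Eif4a3 they were Rps15 (0.9885), Espl1 (0.9861) and Psmb1 (0.9849). The points share libraries and the 2-cell step, which any gene first seen at that stage has in common.

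Factors that act with EIF1A in the scanning ribosome were listed for comparison with it. Of 27 listed scanning factors, 25 were tested in FGO and 24 in MII, and limma called 0 at either (3 and 1 at an unadjusted p under 0.05), where 8.34% and 12.0% of all genes were called. In L1C 3 of 25 were higher and 0 lower, against 6.20% and 8.71% of all genes. Among them were Eif3g, which rose by 0.75 (adjusted p = 0.020), and Eif3m, which rose by 0.46 (adjusted p = 0.033), subunits of the eIF3 complex. In E2C 2 of 25 were lower and 0 higher, against 5.83% and 4.19% of all genes. Eif5b, the GTPase that joins the ribosomal subunits and binds EIF1A, fell by 1.10 (adjusted p = 0.0022), from 43.6 ± 3.0 to 19.8 ± 1.4 FPKM (SD, n = 3 each). Eif2s2, a subunit of eIF2, fell by 0.41 (adjusted p = 0.048). The median over the list was -0.0041 in E2C, against 0.03 over all genes. In L2C 14 of 26 were lower and 2 higher, where 19.5% and 19.0% of all genes were, with a median of -0.54 against 0.03.

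Of 18 listed cap-binding and helicase factors, 16 were tested in each of the first 4 stages. Eif4h, a helper of the eIF4A helicase, rose by 0.44 in FGO (adjusted p = 0.048) and 0.41 in L1C (adjusted p = 0.017). The scaffold Eif4g1 rose by 0.44 in MII (adjusted p = 0.012) and 0.56 in L1C (adjusted p = 0.0047). The poly(A)-binding protein gene Pabpc1 fell by 0.49 in MII (adjusted p = 0.028). In E2C 2 rose, Eif4e3 by 0.66 (adjusted p = 0.011) and Eif4b by 0.59 (adjusted p = 0.018). Pabpc1 fell by 1.12 there (adjusted p = 0.023) and Pdcd4, an inhibitor of eIF4A, fell by 0.59 (adjusted p = 0.024). In all, 1 was called in FGO, 2 in MII, 2 in L1C and 4 in E2C, against 8.34%, 12.0%, 14.9% and 10.0% of all genes. In L2C 5 of 17 were higher and 3 lower, where 19.0% and 19.5% of all genes were, with a median of 0.06 against 0.03.

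All 11 listed partners of EIF4A3 in the exon junction complex were tested at every stage, and 2, 1, 2, 1 and 4 were called in order of stage. The shares of all genes called were 8.34%, 12.0%, 14.9%, 10.0% and 38.5%. In FGO 2 rose, Rbm8a, the Y14 subunit of the core, by 0.62 (adjusted p = 0.043) and Sap18 by 0.33 (adjusted p = 0.039). In MII Magohb, a core subunit, fell by 0.53 (adjusted p = 0.014). In L1C Sap18 rose by 0.89 (adjusted p = 0.00084) and Cwc22, the splicing factor that loads EIF4A3, rose by 0.32 (adjusted p = 0.045). In E2C Pym1, which takes the complex apart on ribosomes, fell by 1.27 (adjusted p = 0.0094), from 3.79 ± 0.078 to 0.988 ± 0.12 FPKM (SD, n = 3 each). The list median was 0.01 in E2C and -0.19 in L2C, where 2 were higher and 2 lower.

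Of 12 nonsense-mediated decay genes, those higher in knockouts numbered 1 in FGO, 3 in MII, 4 in L1C and 1 in E2C, and 0 were lower at these stages. Of all genes, 1.34%, 4.20%, 6.20% and 4.19% were higher there. Smg5 rose by 0.59 in FGO (adjusted p = 0.031), 0.64 in MII (adjusted p = 0.021) and 0.60 in L1C (adjusted p = 0.032). Upf2 rose by 0.38 in MII (adjusted p = 0.0495) and 0.48 in L1C (adjusted p = 0.010). The helicase gene Upf1 rose by 0.97 in E2C (adjusted p = 0.011). The median in E2C was 0.33 against 0.03 over all genes, with 11 of 11 tested above 0. In L2C 0 of 11 were higher and 4 lower, where 19.0% and 19.5% of all genes were, with a median of -0.24.

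Other genes of the 2-cell wave were listed for comparison with the copies, 23 in all. In E2C 21 were tested, of which 4 were lower and 2 higher, where 5.83% and 4.19% of all genes were, with a median of -0.83 against 0.03 over all genes. Obox3, a homeobox gene, fell by 2.33 (adjusted p = 0.037) and Tdpoz2 fell by 1.52 (adjusted p = 0.033). Against these, the double homeobox gene Duxf3 rose by 2.05 (adjusted p = 0.0019), from 4.86 ± 1.35 to 23.0 ± 4.2 FPKM (SD, n = 3 each), and AW822073 rose by 2.15 (adjusted p = 0.00021). In L2C 15 of 22 were higher and 2 lower, where 19.0% and 19.5% of all genes were, with a median of 1.19. The 2 that were lower, named after their values were seen, were Tdpoz2 (-1.27, adjusted p = 0.018) and Tdpoz4 (-1.75, adjusted p = 0.0076). In FGO Tcstv1 fell by 0.71 (adjusted p = 0.0078) and in MII and L1C limma called 0 of 4 and 0 of 7 tested (1 and 2 at an unadjusted p under 0.05).

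At embryonic day 6.5, in poly(A) libraries that were normalised apart from the early ones, the parents were abundant. BB287469 and Gm4027 were listed at 0 in all 11 libraries, and Eif4a3l1 was at most 0.301 FPKM. Eif4a3l2 was at 4.62 to 20.4 FPKM, Eif1a at 28.6 to 194 FPKM and Eif4a3 at 226 to 594 FPKM. In the epiblast, Eif1a was at 50.4 and 79.0 FPKM in controls and 37.9 and 111 FPKM in knockouts, and Eif4a3 at 401 and 594 FPKM in controls and 344 and 470 FPKM in knockouts. In the visceral endoderm Eif1a was at 96.5 and 28.6 FPKM in controls and 97.8 and 71.6 FPKM in knockouts, and Eif4a3 was at 364 and 226 FPKM in controls and 343 and 253 FPKM in knockouts. In the extraembryonic ectoderm Eif1a was at 98.9 FPKM in the single control and 67.5 and 194 FPKM in knockouts, and Eif4a3 at 382 FPKM in the control and 400.3 and 498 FPKM in knockouts. The genotypes overlapped for both parents in the epiblast and visceral endoderm, and no test was made.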

How the data were processed

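RNA was measured in 26 total RNA and 11 poly(A) libraries. The deposited values are FPKM, made by the authors, 1 column per library. The submitters' processing notes name Trim Galore 0.6.6, STAR 2.7.9, StringTie 2.1.7 and mm10, without their roles, the annotation or the treatment of reads that match several genes. In 1 deposited column, control epiblast replicate 1, a single negative value was set to 0. Depth is unknown, so no counting intervals are given, and library number limits the precision.

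Values were analysed as log2(FPKM + 1), which understates changes of low genes. Genes reaching 1 FPKM in 2 or more libraries were tested with limma 3.58.1 in R 4.3.3 (eBayes with trend), each stage alone, with Benjamini-Hochberg adjustment over all genes and a threshold of 0.05. Sequences were compared with BLAST 2.17.0 (at least 60% identity over 60% of the length), and symbols were matched to GENCODE M21 by identifier (55141 of 55401). Other steps used Python 3.11.15 and pandas 2.3.3, and plots matplotlib 3.10.9. The fit was tested on simulated data first. Alternatives were the pseudocount, the filter, scaling to a common total, centring, the trend, 1 fit of 26 libraries, a replicate block and leaving out each library. Named were the 6 members, relatives with a group mean of at least 5 FPKM, the 3 genes most like each member, and, in each list and stage from FGO to E2C, the 2 genes with the largest rise and the 2 with the largest fall. The members and lists were chosen with earlier results of these data known.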

Additional observations from a re-analysis of the deposited data

Results flagged for a closer look

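In 4 of the 6 members every knockout library lay on one side of every control library at 1 stage and on the other side at another, as in 23.4% of the 12634 genes that passed the filter at 2 or more stages. Each of the 4 changes of side includes L2C, whose difference was in view when the genes were chosen. The shares of all genes given here are therefore no measure of enrichment. These differences between stages were not tested. BB287469 was lower in E2C (-0.72 on the log2(FPKM + 1) scale) and higher in L2C (2.94). Eif4a3l1 was lower in E2C (-0.72) and higher in L2C (3.41). Of the 10706 genes past the filter at both of these stages, 3.61% had this order. Eif4a3l2 was lower in MII (-0.16, where all values were between 1.15 and 1.65 FPKM) and higher in L2C (2.34). Eif4a3 was higher in FGO (0.14) and lower in L2C (-0.5). In FGO the highest control and the lowest knockout library of Eif4a3 were 66.5 and 66.6 FPKM, so that this separation is narrower than the spread within controls.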

How the results depend on the processing

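No alternative turned the direction of Eif1a or of the 4 copies in E2C, although the calls moved. With 1 fit of 26 libraries, BB287469 (-0.72), Gm4027 (-0.85), Eif4a3l1 (-0.72), the summed EIF1A-like members (-0.85), the copies over 90% identical (-1.05) and the coding relatives over 60% (-0.95) were called, at the same differences. That fit shares 1 estimate of the spread with oocyte stages in which these genes are near 0. It also called more of all genes than the fit of E2C alone. Eif1a was no longer called with a pseudocount of 0.1 (-1.98), without a filter (-1.24) or with the replicate block (-1.24). The sum of the coding EIF4A3 relatives over 60%, -0.08 in E2C, was 0.030 after scaling to a common total.

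Leaving out 1 library at a time gave ranges in E2C of -1.43 to -0.94 for Eif1a, -0.97 to -0.37 for BB287469, -1.23 to -0.49 for Gm4027, -0.91 to -0.37 for Eif4a3l1, -1.17 to -0.30 for Eif4a3l2 and -0.17 to 0.19 for Eif4a3, which was negative without control replicate 1 (-0.09) or knockout replicate 2 (-0.17). For the sums it gave -1.18 to -0.45 (EIF1A-like members), -1.02 to -0.29 (EIF4A3-like members), -1.39 to -0.51 and -1.003 to -0.28 (copies over 90%), and -1.25 to -0.50 and -0.12 to -0.04 (relatives over 60%). The EIF4A3-like sums were called only without knockout replicate 3. The copy-to-parent ratios ranged from 0.23 to 0.53 and from -1.18 to -0.12, and the first was 1.06 with a pseudocount of 0.1 and 1.23 with none.

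The number of genes called was 964 in FGO, 1368 in MII, 1654 in L1C, 1181 in E2C and 4891 in L2C. It was 308 (FGO), 555 (MII) and 1002 (L1C) at a mean of at least 5 FPKM, 882 (MII), 761 (L1C), 164 (E2C) and 3178 (L2C) without a filter, and 895 (MII) and 4405 (E2C) in 1 fit of 26 libraries. Leaving out 1 library gave 15 to 1250 (FGO), 157 to 1364 (MII), 237 to 1571 (L1C), 308 to 845 (E2C), 2876 to 4860 (L2C), 894 to 1661 (FGO to MII, 1723 with all) and 3295 to 4497 (MII to L1C). The FGO count was 41 without control replicate 1 and 15 without control replicate 2. For the difference between L1C and E2C, 43 genes were called, 78 without a filter, 73 after centring on medians, 710 in 1 fit of 26 libraries and 7 to 130 without 1 library. Of the chromosome 12 copies, 2 were called in E2C, 0 with a pseudocount of 0.1, without a filter, after either scaling or without the trend, 12 in 1 fit of 26 libraries and 0 to 6 without 1 library.

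Replicate numbers did not pair the libraries in E2C, where the deviations of same-numbered libraries correlated at -0.0925 to 0.0559. The range was 0.1009 to 0.1077 in FGO, -0.0379 to 0.167 in MII, 0.0543 to 0.0837 in L1C and 0.0168 to 0.0349 in L2C. Those stages had 2 controls, whose deviations mirror each other, so the check cannot decide the pairing there. With the replicate block, 100 genes were called in FGO, 672 in E2C and 1 for the difference between L1C and E2C, and 1 copy was called in E2C.

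Among results that were near 0, the sign changed for the EIF4A3 copies over 90% in MII (0.065 with the replicate block, -0.23 to 0.065 without 1 library), the EIF4A3-like members in L1C (-0.022 with the replicate block, -0.064 to 0.21 without 1 library), the EIF1A copies over 90% between FGO and MII (-0.19 to 0.028 without 1 library) and the difference between L1C and E2C of the EIF1A copies over 90% (0.69 with a pseudocount of 0.1, 0.43 after scaling to a common total, 0.38 with the replicate block, -0.56 to 0.45 without 1 library). The cause of these changes was not tested. The sums over 90% identity and the counts over the copies were chosen after seeing the data.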

Other observations

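Gm5788, the first copy of the chromosome 12 cluster, was the exception among the 16 in controls. Its control mean was 29.2 FPKM in E2C and 41.8 FPKM in L2C, while the other 15 copies were lower in control L2C than in control E2C, by 1.65-fold (Gm16368) to 12.97-fold (Gm5039). Its knockout mean in L2C was 63.5 FPKM, and its ratio of 1.52 between genotypes was the lowest of the cluster there. Of its 50-base words, 59.59% occur in another gene.

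In knockout embryos the mean of each of the 16 copies was higher in L2C than in E2C, by 1.96-fold (Gm2035) to 8.68-fold (Gm16368), with a median of 3.18-fold. In control embryos 15 of the 16 went the other way.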
